A study of Mus musculus with 6 samples.

Results

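Glutathione and antioxidant enzymes were followed in whole pancreas of mice at postnatal day 7. The 52 genes described here were chosen by gene name from the enzyme families of glutathione and peroxide metabolism, with earlier results of the same libraries known. They are 52 of the 23337 gene symbols in the count tables, and all 52 symbols were listed for each of the 6 libraries, some without a count. Control mice carried Ptf1a cre/+, a Cre recombinase at the locus of the acinar transcription factor Ptf1a. Mutant mice carried Ptf1a cre/+ together with the transgene CAG-loxP-STOP-loxP-Prox1-LacZ, so that Cre removes a stop signal and the Ptf1a lineage makes the homeobox factor Prox1 together with LacZ. All mice were of the strain NMRI, Cre was therefore present in both groups, and each group had 3 libraries. Cre at Ptf1a acts in pancreas progenitors and acinar cells, while RNA was taken from the whole organ with its other cell types. By the design text controls were pooled and mutants were not, while the protocol for RNA extraction mentions no pools, so pooling and genotype cannot be told apart.

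Glutathione is a small thiol made in the cytosol in consecutive steps, first by glutamate-cysteine ligase (Gclc, Gclm) and then by glutathione synthetase (Gss). Glutathione peroxidases spend it to reduce peroxides, glutathione reductase (Gsr) regenerates it, transferases couple it to reactive compounds, and gamma-glutamyl transferases at the cell surface take it apart so that its amino acids can be used again. Peroxiredoxins with thioredoxin form a parallel route for peroxides, superoxide dismutases and catalase act upstream and beside them, and the transcription factor Nrf2 (Nfe2l2), held back by Keap1, drives many of these genes through antioxidant response elements. Acinar cells make digestive enzymes in a large endoplasmic reticulum, where disulfide formation releases hydrogen peroxide, and the peroxidases Prdx4, Gpx7 and Gpx8 reside in that compartment.

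The core of the antioxidant response element is written TGACNNNGC, where N is any base. It was searched on both strands of RefSeq promoters (GRCm38.p6), from 250 bases before to 50 bases after each start site, because it is the element through which Nrf2 reaches its targets. Promoters were held for 45 of the 52 genes, and 10 of these 45 genes (22.2%) had at least 1 match, against 3781 of 27025 genes (14%) in the whole table. Per promoter, 12 of 61 (19.7%) against 4071 of 32851 (12.4%) held a match. Only matches before a start site were checked for annotated exons. The 6 of these that lay outside exons are printed 5′ to 3′ on the strand of the motif, with the core in capitals.
Gsta3: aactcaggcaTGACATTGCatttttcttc
Gclm: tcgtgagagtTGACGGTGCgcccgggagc
Prdx1: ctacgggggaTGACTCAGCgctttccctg
Ggt1: gtcacaagccTGACGCTGCgcctccttgc
Txnrd1: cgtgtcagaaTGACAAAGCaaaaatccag
Sod1: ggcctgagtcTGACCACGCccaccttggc
The Gsta3 site is at chr1:21240454-21240482, with its first core base 121 bases before the start site, on the strand of the gene. The Ggt1 site, at chr10:75571467-75571495 and 83 bases before one of its 4 start sites, is also on the strand of the gene. The other 4 are on the opposite strand, at chr3:122245413-122245441 for Gclm, chr4:116685456-116685484 for Prdx1, chr10:82859104-82859132 for Txnrd1 and chr16:90220696-90220724 for Sod1. Matches for Nfe2l2, Gstm5, Gstm7 and Mgst1 lay in annotated exons. Ggt1 had 2 further matches, 36 bases before its second start site and 41 bases after its first. A match of these letters is a description of the promoter and not a measured binding site.

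Total counts were between 7304727 and 10773223 per library, and levels are given as CPM, the count of a gene per 1000000 counts of the TMM-scaled library size. Prox1 was at 10.8, 7.85 and 9.13 CPM in controls 1 to 3, against 25.5, 31.3 and 31.0 CPM in mutants 1 to 3, a log2 fold change of 1.67 ± 0.15 (SE) with an edgeR adjusted p of 0.000239. Ptf1a lay between 17.7 and 21.1 CPM in the controls, and between 14.4 and 15.4 CPM in the mutants (edgeR adjusted p = 0.161), and its antisense gene Ptf1aos could not be told apart from it without the strand setting. The 12 acinar markers summed to between 320579 and 350945 CPM in the controls, and between 264607 and 318974 CPM in the mutants. The groups did not overlap and no marker was at 0. The margin was small, 320579 CPM in control 3 against 318974 CPM in mutant 3. It was not kept on library totals alone, where the groups overlapped. The 10 macrophage markers summed to between 212 and 249 CPM in the controls, and between 263 and 297 CPM in the mutants, again without overlap. These 10 genes did not move together by edgeR, since C1qc and Mrc1 were called higher and C1qa lower. Of the 11 tested acinar markers Cel alone was called, and it was lower, and these 4 genes were named after their values were seen. The duct, endocrine, adipocyte, neutrophil, erythroid, fibroblast, endothelial and liver marker sums overlapped between the groups. In these lists Fabp4 (of 9 tested adipocyte markers) and Bpgm (of 6 erythroid) were called lower. Ahsg (of 3 tested liver markers) was called higher, and these genes too were named after their values were seen. The part of these marker levels in the enzyme values was not tested, and in RNA of a whole organ fewer cells of a type and less RNA per cell cannot be told apart. Control 1 had 1069 CPM of Xist, against at most 0.442 CPM in the other libraries, and no count of the Y-linked Ddx3y, so it differed from the other 5 in sex.

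Of the 52 genes 45 had enough counts to be tested with the 13017 genes of the whole table. In mutants 6 were lower at an edgeR adjusted p under 0.05 over all genes, namely Gstt3, Ggt1, Gstt2, Gstp1, Gstm2 and Gsto1, and none was higher. The same threshold called 1.51% of all tested genes lower and 0.545% higher. At an unadjusted p under 0.05 by edgeR 14 of the 45 were lower and 2 higher, where 7.36% and 5.41% of all tested genes were. DESeq2 called 7 lower and 0 higher, against 1.58% and 0.559% of the genes it tested. Because the genes were chosen with this contrast in view, these counts are a description, and no test of the list is given. All 3 mutant libraries were below all 3 controls for 14 of the 45 genes and above them for 5, where 9.86% and 9.13% of all tested genes separated in those directions. The groups overlapped for the other 26. The median log2 fold change of the 45 was -0.134 against 0.00448 for all tested genes, and scaling by library totals alone put these medians at 0.0387 and 0.17, which turns the sign for the 45 but leaves their median below that of all genes. The same scaling turned the log2 fold changes of Gclc, Gpx7, Gstm4, Gstz1, Mgst1, Mgst2, Nfe2l2, Prdx1, Txn1 and Txnrd1 from below to above 0, none of them past the threshold.

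**Figure D1:**
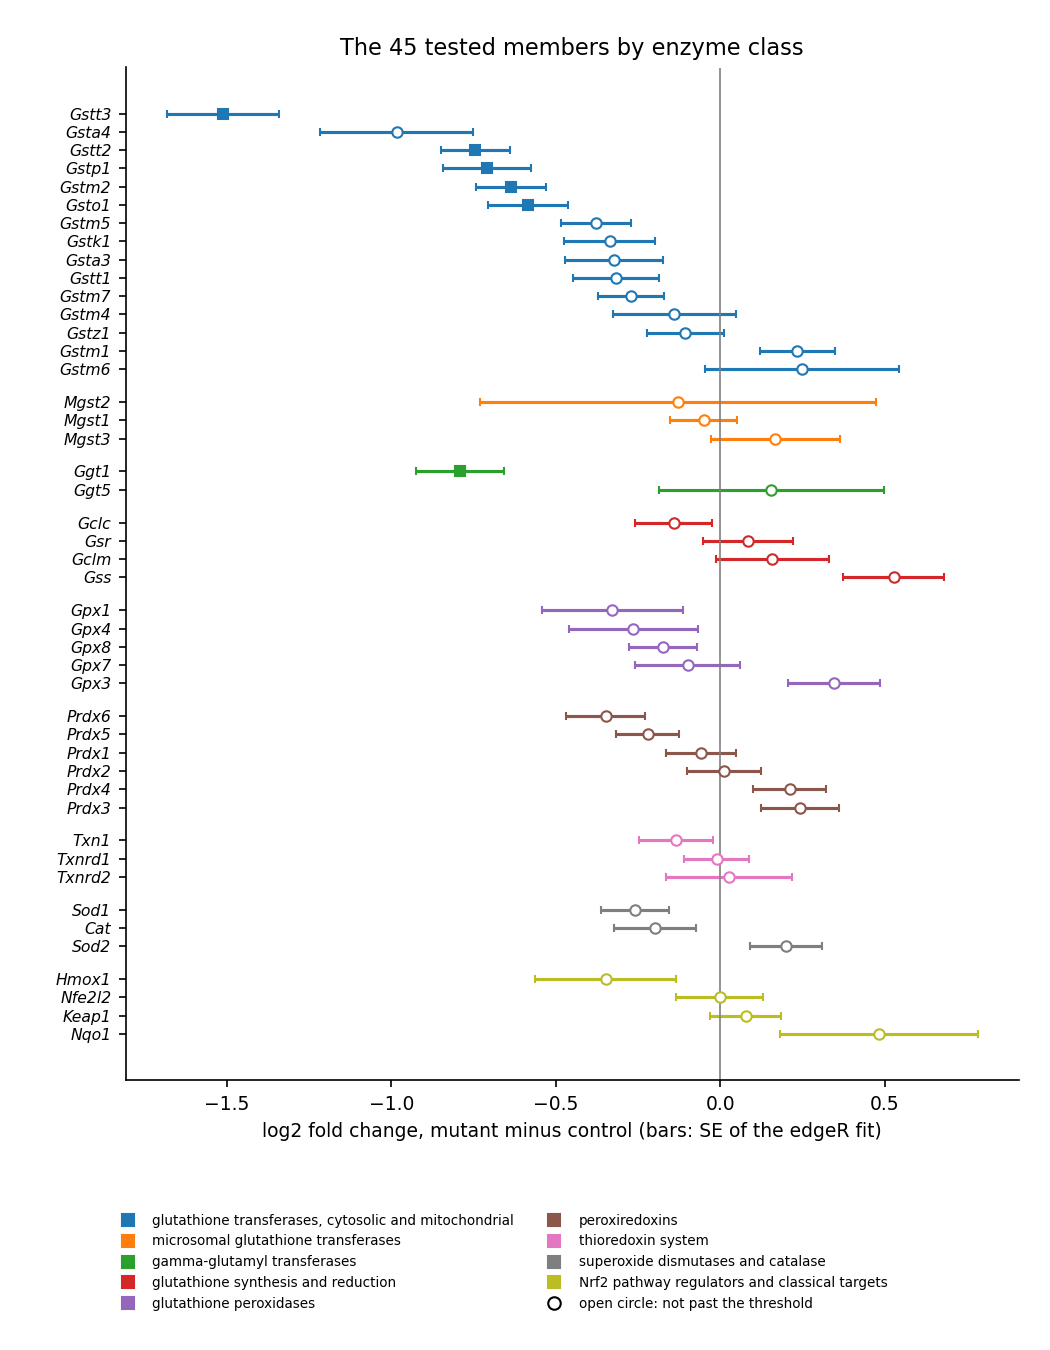
Log2 fold change, mutant minus control, with its standard error for each of the 45 tested genes, ordered by enzyme class, from n = 3 libraries per group. The 6 filled points past the threshold all lie below 0, between -1.51 and -0.584, and 5 of them are cytosolic glutathione transferases.

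The cytosolic and mitochondrial glutathione transferases, which couple glutathione to reactive and foreign compounds, held 5 of the 6 genes that fell. Their 19 genes summed to 401 ± 6.34 CPM in the controls, against 326 ± 8.49 CPM in the mutants (SD, n = 3), so that the mutant sum was 81.3% of the control sum. The 3 control sums, 393, 405 and 404 CPM, were all above the 3 mutant sums of 318, 324 and 335 CPM. Of the 15 tested, 5 fell, against 1.51% of all tested genes, 13 had a log2 fold change below 0, against 49.1%, and 10 had all mutant libraries below all controls, against 9.86%. These shares are given as background to a class chosen with the contrast in view. With library totals alone the log2 ratio of the sums was -0.13 in place of -0.30.

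The theta-class transferases Gstt1, Gstt2 and Gstt3 are neighbours on chromosome 10 and are known for dealing with small halogenated compounds. Gstt3 (chr10:75774115-75781414, minus strand, GRCm38) was at 16.7, 16.5 and 16.1 CPM in the controls, against 5.14, 4.76 and 7.29 CPM in the mutants. It had the largest fold of the 45 tested genes, 2.85-fold lower, with a log2 fold change of -1.51 ± 0.17 (SE). The highest mutant was under the lowest control by more than the whole spread of either group. Of its 50-base stretches 12.5% also occur in other genes, chiefly Gm20441, which lies on the same strand and covers 13.6% of its exon bases, so reads of the 2 genes cannot be fully told apart. Gstt2 (chr10:75831114-75837424, minus strand) was at 31.0, 30.3 and 29.0 CPM in the controls, against 17.2, 19.5 and 17.2 CPM in the mutants, a log2 fold change of -0.74 ± 0.10. Controls and mutants were again well apart. Gstt1, which lies between them, was at 18.8, 18.8 and 19.3 CPM in the controls, against 13.1, 17.4 and 15.3 CPM in the mutants. Its groups did not overlap either, but its log2 fold change of -0.32 ± 0.13 was not past the threshold. In chromosomal order Gstt3, Gstt1 and Gstt2 therefore had log2 fold changes of -1.51, -0.32 and -0.74, and the differences between these genes were not tested.

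The 250 bases before RefSeq start sites of Gstt3 and Gstt1 are shown because these adjacent genes differed in fold. Those before the first RefSeq start site of Ggt1 are shown because it lies in the same chromosomal neighbourhood and was also lower. Gstt2, which fell as well, is not shown because no RefSeq promoter was held for it. The runs are on the strand of each gene, hold no annotated exon bases, and carry in capitals each match, on either strand, of the CCAAT box (CCAAT), the TATA box (TATAAA) and the GC box (GGGCGG).
Gstt3: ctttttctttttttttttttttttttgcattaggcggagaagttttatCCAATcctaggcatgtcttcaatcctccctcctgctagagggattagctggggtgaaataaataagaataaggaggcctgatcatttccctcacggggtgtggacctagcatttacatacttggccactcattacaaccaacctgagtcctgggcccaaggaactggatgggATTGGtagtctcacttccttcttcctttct
Gstt1: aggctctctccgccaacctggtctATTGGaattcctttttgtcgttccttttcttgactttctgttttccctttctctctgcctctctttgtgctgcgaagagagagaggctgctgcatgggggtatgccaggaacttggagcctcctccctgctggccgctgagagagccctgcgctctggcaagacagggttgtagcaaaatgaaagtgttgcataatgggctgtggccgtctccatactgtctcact
Ggt1: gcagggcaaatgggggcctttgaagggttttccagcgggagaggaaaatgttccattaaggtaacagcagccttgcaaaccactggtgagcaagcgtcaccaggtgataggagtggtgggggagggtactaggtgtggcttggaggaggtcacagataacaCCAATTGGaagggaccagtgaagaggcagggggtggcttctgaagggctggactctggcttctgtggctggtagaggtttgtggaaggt
They come from chr10:75781423-75781672 (minus strand), chr10:75797732-75797981 (minus strand) and chr10:75563882-75564131 (plus strand). In the GENCODE M21 annotation Gstt1 spans 75783813-75798584 and Ggt1 75561604-75586200. Their 2 runs therefore lie inside these genes, between exons, and the annotations differ in where the genes start. The Gstt3 run lies outside its gene in both. Gstt3 and Ggt1 each held 2 matches of CCAAT, the CCAAT and its reverse complement overlapping in Ggt1, and Gstt1 held 1. None of the 3 printed runs held a TATA box or GC box by these letters. This did not hold for all start sites of Ggt1. The windows chr10:75568412-75568661 and chr10:75571310-75571559, before other start sites, held 1 GC box each. The window chr10:75573245-75573494 held 1 TATA box. Over all promoters 33.8% held a CCAAT box, 12.4% a TATA box and 32.7% a GC box, and over the 61 promoters of the antioxidant genes the shares were 52.5%, 18% and 59%. The antioxidant response core was not in these 250 bases of the 3 genes. In Ggt1 it lay 41 bases after this same start site, beyond the printed run.

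**Figure D2:**
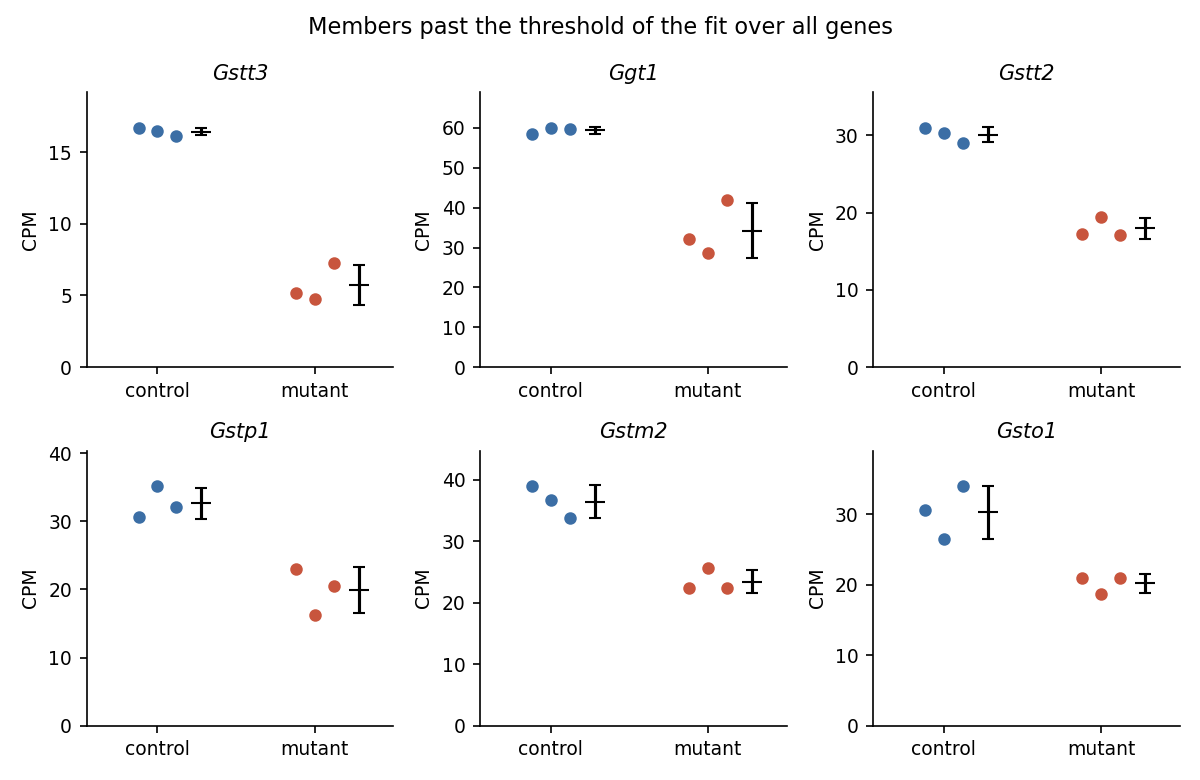
CPM in each of the 3 control and 3 mutant libraries for the 6 genes past the threshold, with the mean and SD beside the points and every axis starting at 0. In all 6 panels each mutant point lies below each control point, with the widest relative gap for Gstt3.

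Of the other classes of cytosolic transferase, pi, mu and omega each had 1 member that fell. Gstp1 (chr19:4035407-4037985), the pi-class enzyme, was at 30.7, 35.1 and 32.1 CPM in the controls, against 22.9, 16.2 and 20.6 CPM in the mutants, a log2 fold change of -0.71 ± 0.13. Its lowest control stood above its highest mutant. It shares 33.7% of its 50-base stretches with Gstp2 and a pseudogene, and Gstp2 itself had at most 0.19 CPM in any library, so its value is uncertain to that extent. Gstm2 (chr3:107981702-107986453), of the mu class, was at 39.0, 36.8 and 33.7 CPM in the controls, against 22.4, 25.6 and 22.4 CPM in the mutants, a log2 fold change of -0.64 ± 0.11, without overlap. Gsto1 (chr19:47854970-47864790), the omega-class enzyme that also reduces dehydroascorbate, was at 30.5, 26.4 and 33.9 CPM in the controls, against 20.9, 18.7 and 21 CPM in the mutants. Its log2 fold change was -0.58 ± 0.12, the smallest of the 6, and it was lost from the calls whenever any 1 of the 6 libraries was left out. Gstp1 was lost without control 1, 2 or 3 or mutant 3, and Gstm2 without control 2, mutant 1 or mutant 3. All 3 were also lost when libraries were scaled by their totals alone.

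The mu transferases lie side by side on chromosome 3 and had log2 fold changes of both signs. Gstm1, the most abundant transferase, was at 70.1, 88.2 and 83.3 CPM in the controls, against 97.1, 86.5 and 101 CPM in the mutants, with a log2 fold change of 0.23 ± 0.11. Its groups overlapped, since mutant 2 lay below control 2, and it shares 18.9% of its 50-base stretches with mu-class relatives. Gstm5 lay between 27.9 and 32.9 CPM in the controls, and between 23.7 and 24.4 CPM in the mutants, and Gstm7 between 27.5 and 29.0 and between 21.9 and 24.8 CPM. Both had separate groups, with log2 fold changes of -0.38 ± 0.11 and -0.27 ± 0.10, and neither passed the threshold. Gstm4 and Gstm6, below 9 CPM in every library, had overlapping groups, and Gstm3 stayed below 1 CPM and was not tested.

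Of the alpha class Gsta4, which handles the lipid peroxidation product 4-hydroxynonenal, had the largest log2 fold change that did not pass the threshold, -0.98 ± 0.23. It was at 14.6, 8.06 and 14.0 CPM in the controls, against 6.38, 5.22 and 6.79 CPM in the mutants. The groups did not overlap, but control 2 stood closer to the mutants than to the other controls, and without control 2 the gene passed the threshold. Gsta3 lay between 12.0 and 15.3 CPM in the controls, and between 9.90 and 12.5 CPM in the mutants, with overlap. Gsta1 had no count in any of the 6 libraries, and Gsta2 had 1 count, in control 3. A count of 0 allows a level of up to 0.286 to 0.451 CPM per library, and 90.5% of the 50-base stretches of Gsta1 and 49.8% of those of Gsta2 occur in other genes, so both may be counted too low. The mitochondrial kappa enzyme Gstk1 had separate groups at a log2 fold change of -0.34 ± 0.14, and Gstz1, the zeta enzyme of tyrosine breakdown, had overlapping groups around 48.0 CPM in the controls, against 44.6 CPM in the mutants.

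The microsomal transferases, membrane enzymes unrelated in sequence to the cytosolic ones, summed to 49.7 ± 2.54 CPM in the controls and 49.1 ± 1.07 CPM in the mutants, with overlap. Mgst1, their most abundant member, was at 41.0, 36.6 and 44.0 CPM in the controls, against 39.2, 37.9 and 40.2 CPM in the mutants. The mutant values all lay inside the control range, and the log2 fold change was -0.05 ± 0.10. Mgst3 had a log2 fold change of 0.17 ± 0.20. Mgst2, with fewer than 3 CPM in every library, had one of -0.13 ± 0.60.

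Of the gamma-glutamyl transferases 2 of 4 were tested, and 1 of them fell. Ggt1 (chr10:75561604-75586200, plus strand), the surface enzyme that starts the breakdown of extracellular glutathione, was at 58.3, 60.0 and 59.7 CPM in the controls, against 32.2, 28.7 and 41.9 CPM in the mutants. Controls lay within 2 CPM of each other, the mutants were spread more widely, and the groups did not overlap. The fold was 1.73, with a log2 fold change of -0.79 ± 0.13, and Ggt1 shares no 50-base stretch with another gene. The call was lost without control 2, control 3 or mutant 1. Ggt5, its neighbour, which also cleaves leukotriene C4, was at 1.5, 3.54 and 4.42 CPM in the controls, against 3.90, 3.02 and 3.89 CPM in the mutants, with overlap and a log2 fold change of 0.15 ± 0.34. Ggt6 and Ggt7 stayed near or below 1 CPM and were not tested. Because Ggt1 makes up most of the class, the summed level was 63.9 ± 2.73 CPM in the controls, against 38.7 ± 7.05 CPM in the mutants, or 60.5%.

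**Figure D3:**
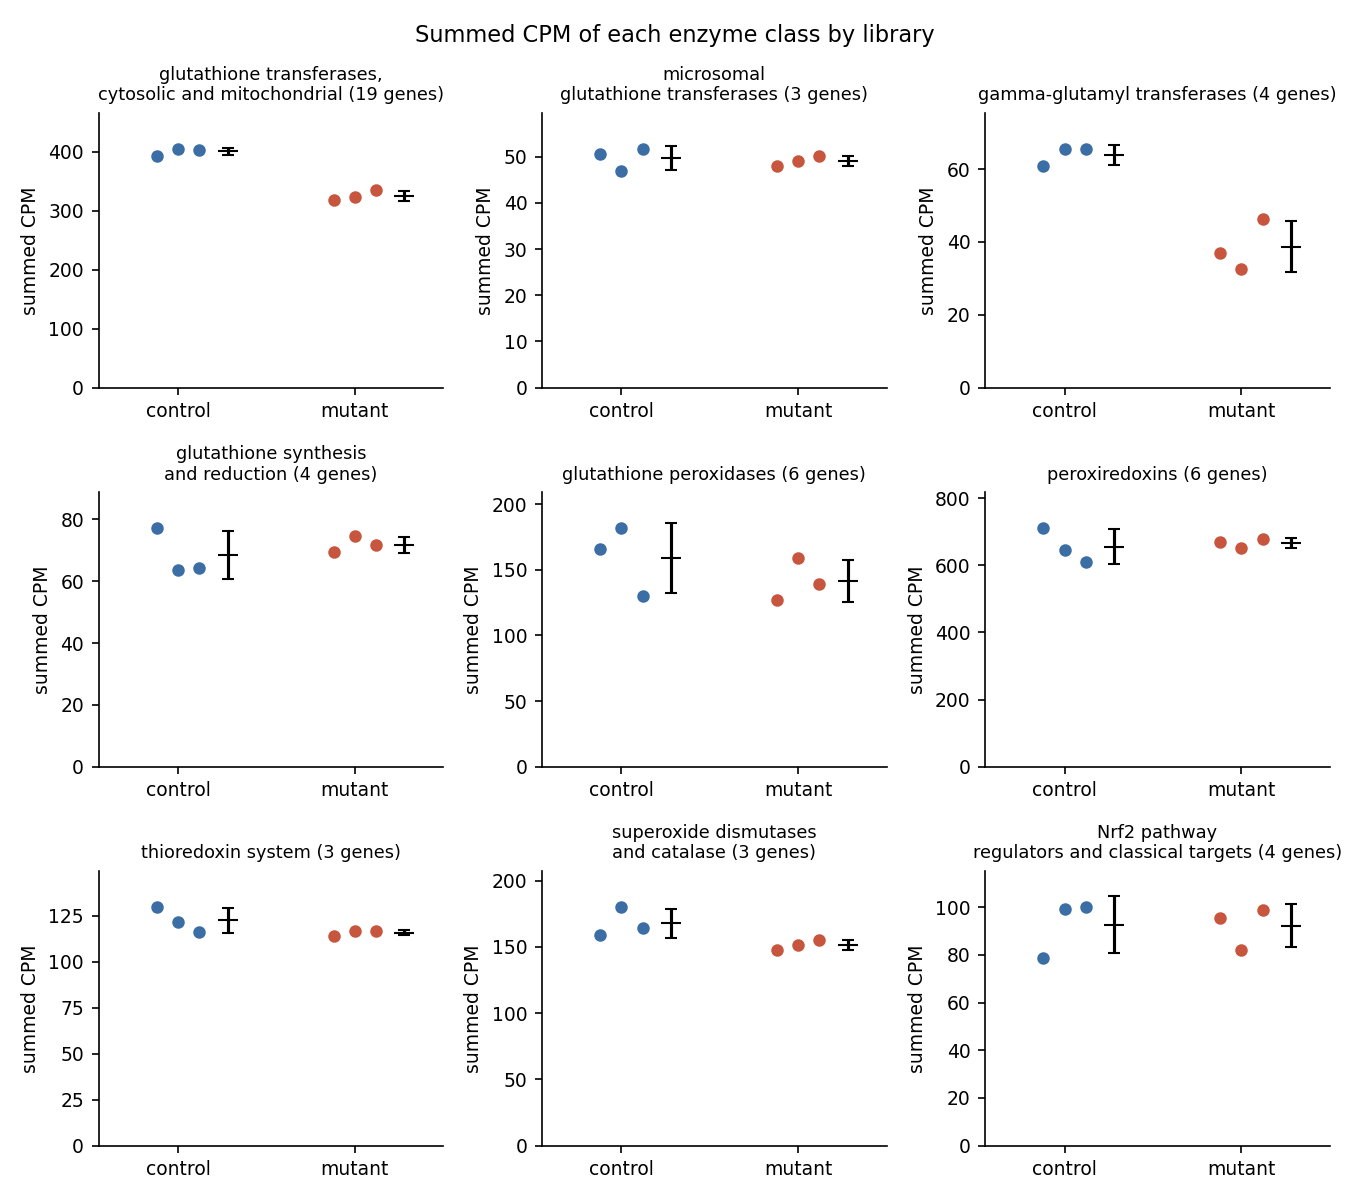
Summed CPM of each of the 9 enzyme classes in the 3 control and 3 mutant libraries, with the mean and SD and every axis starting at 0. Mutant libraries lie below every control for the cytosolic transferases, the gamma-glutamyl transferases and, by a small margin, superoxide dismutases with catalase, while the remaining 6 classes overlap.

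Enzymes that make and regenerate glutathione had no member past the threshold. Gsr, the reductase, was at 30.4, 21.3 and 22.8 CPM in the controls, against 26.6, 25.8 and 26.0 CPM in the mutants. The mutants lay within the control range, and the log2 fold change was 0.08 ± 0.14. Gss, the second enzyme of synthesis, was at 7.22, 6.96 and 8.36 CPM in the controls, against 12.1, 10.1 and 10.4 CPM in the mutants. Every mutant was above every control, and at 0.53 ± 0.15 this was the largest positive log2 fold change of the 45 tested genes, although not past the threshold. Overlapping genes on the opposite strand cover 15.4% of the exon bases of Gss, and the strand setting of the counting is not given in the sources used here. The subunits of glutamate-cysteine ligase had overlapping groups, at 25.3 and 22.9 CPM on average for the catalytic subunit Gclc and 10.8 and 12.0 CPM for the modifier subunit Gclm in controls and mutants. Their log2 fold changes were -0.14 ± 0.12 and 0.16 ± 0.17.

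Of the glutathione peroxidases none of the 5 tested passed the threshold. Gpx1, the general cytosolic peroxidase and a major enzyme of red blood cells, was at 75.8, 100 and 53.7 CPM in the controls, against 54.6, 75.7 and 52.6 CPM in the mutants. The groups overlapped, control 2 was the highest of its group and mutant 2 of the other, and the log2 fold change was -0.33 ± 0.21. The 8 erythroid markers, of which Hba-a1 and Hba-a2 were at 0, summed to 350, 738 and 225 CPM in the controls, against 134, 271 and 192 CPM in the mutants. Bpgm alone of the 6 tested was called, and it was lower. Control 2 and mutant 2 were again the highest of their groups. The same held for the 8 neutrophil markers, which summed to 38.0, 84.2 and 18.7 CPM in the controls, against 17.3, 26.7 and 15.5 CPM in the mutants. The part of red blood cells or neutrophils in the Gpx1 values was not tested. Gpx3, the secreted plasma peroxidase, was at 23.3, 22.6 and 16.9 CPM in the controls, against 24.0, 26.8 and 28.6 CPM in the mutants, separate by a small margin (log2 fold change 0.35 ± 0.14). Gpx8 of the endoplasmic reticulum lay between 34.5 and 38.2 CPM in the controls, and between 30.0 and 35.2 CPM in the mutants, with overlap. Gpx7, of the same compartment, and Gpx4, which reduces lipid hydroperoxides, overlapped at log2 fold changes of -0.10 ± 0.16 and -0.27 ± 0.20. Gpx4 shares 34.7% of its 50-base stretches with other genes, and Gpx2, the intestinal form, had at most 1.55 CPM and was not tested.

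The peroxiredoxins were the most abundant class, with sums of 656 ± 52 CPM in the controls, against 667 ± 14.6 CPM in the mutants, and no member passed the threshold. Prdx4, the peroxiredoxin of the endoplasmic reticulum, was at 279, 259 and 249 CPM in the controls, against 306, 280 and 325 CPM in the mutants. All mutants were above all controls, but mutant 2 and control 1 differed by less than 1 CPM, and the log2 fold change was 0.21 ± 0.11. Prdx4 lies on the X chromosome. Prdx6, which uses glutathione in place of thioredoxin, was at 145, 114 and 112 CPM in the controls, against 101, 90.8 and 98.7 CPM in the mutants, separate in the other direction (-0.35 ± 0.12). Prdx5 was separate as well, at -0.22 ± 0.10, and 19.1% of its exon bases overlap a gene on the opposite strand. The cytosolic Prdx1 and Prdx2 averaged 103 and 99.5 CPM in the controls, against 98.8 and 100 CPM in the mutants, and the mitochondrial Prdx3 31.1 and 36.7 CPM, all with overlapping groups.

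The thioredoxin system, which supplies the electrons of most peroxiredoxins, had log2 fold changes close to 0. Txn1, cytosolic thioredoxin, was at 83.2, 69.8 and 64.1 CPM in the controls, against 65.6, 68.7 and 63.1 CPM in the mutants. The groups overlapped, with control 1 above the rest, and the log2 fold change was -0.13 ± 0.11. The reductases Txnrd1 (cytosolic) and Txnrd2 (mitochondrial) had log2 fold changes of -0.01 ± 0.10 and 0.03 ± 0.19. A log2 fold change that misses the threshold does not show that a level was the same in both groups.

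Superoxide dismutases and catalase had no gene past the threshold. Cat, the peroxisomal catalase, was at 65.3, 88.3 and 85.4 CPM in the controls, against 69.4, 65.2 and 74.1 CPM in the mutants, with overlap at control 1. Sod1, the cytosolic dismutase, was separate at -0.26 ± 0.10 (between 54.9 and 64.7 CPM in the controls, and between 48.8 and 54.3 CPM in the mutants). The mitochondrial Sod2 was separate in the other direction by a very small margin, at 0.20 ± 0.11. Their summed level in mutants was 90.3% of that in controls, and the sum changed direction when libraries were scaled by their totals alone (log2 ratio of -0.15 against 0.02). The sums of the glutathione peroxidases (-0.17 against 0.01), thioredoxin system (-0.08 against 0.09), microsomal transferases (-0.02 against 0.15) and Nrf2 genes (-0.01 against 0.15) changed direction in the same way, whereas the cytosolic transferases and gamma-glutamyl transferases stayed below 0.

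Among the regulators and classical targets of Nrf2, Nfe2l2 itself was at 45.4, 54.7 and 57.4 CPM in the controls, against 54.3, 43.9 and 59.3 CPM in the mutants. The groups overlapped throughout, and both means were 52.5 CPM. Keap1, the adaptor that marks Nrf2 for degradation, overlapped at 0.08 ± 0.11. The quinone reductase Nqo1 was low, between 1.20 and 1.55 CPM in the controls, and between 1.80 and 2.29 CPM in the mutants, separate but not past the threshold (0.48 ± 0.30). Hmox1, the heme oxygenase, lay between 8.27 and 16.1 CPM in the controls, and between 9.24 and 10.8 CPM in the mutants, with overlap.

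Levels of different genes were compared in controls after dividing CPM by the kilobases of exon sequence, counted over all annotated exons of a gene or over its longest transcript alone. Prdx4 had the highest level of the 52 genes by either length, 125 ± 7.25 CPM per kb over all exons (SD, n = 3) and 256 ± 14.9 CPM per kb over the longest transcript. Txn1, Gstm1 and Gpx1 followed at 68.9 ± 9.30, 54.7 ± 6.36 and 53.1 ± 16.1 CPM per kb over all exons, but over the longest transcript Gpx1 was at 71.4 ± 21.6, Txn1 at 68.9 ± 9.30 and Gstm1 at 62.5 ± 7.27 CPM per kb, so their order depended on the length. The leading gene of each class was the same by both lengths in 9 of 9 classes, while the order below it was not. Among peroxiredoxins Prdx1, Prdx2 and Prdx6 were at 33.8, 32.6 and 25.7 CPM per kb over all exons and at 44.9, 61.7 and 48.3 CPM per kb over the longest transcript. Among transferases Gstm5, Gstm2 and Gstp1 were at 24.5, 21.7 and 21.1 CPM per kb over all exons, each overlapping the next over the 3 controls. Over the longest transcript they stood in the reverse order, at 28.9, 34.3 and 39.8 CPM per kb without overlap, and Gstt3 was at 4.28 or 8.28 CPM per kb. Ggt1 was at 17.4 or 27.4 CPM per kb, far above Ggt5 at 0.533 or 0.715. In synthesis and reduction Gsr and Gclc led by both lengths, at 9.01 and 6.72 CPM per kb over all exons, whereas Gclm and Gss, at 1.72 and 1.27 CPM per kb, changed places and overlapped over the longest transcript (1.94 and 2.31 CPM per kb).

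**Figure D4:**
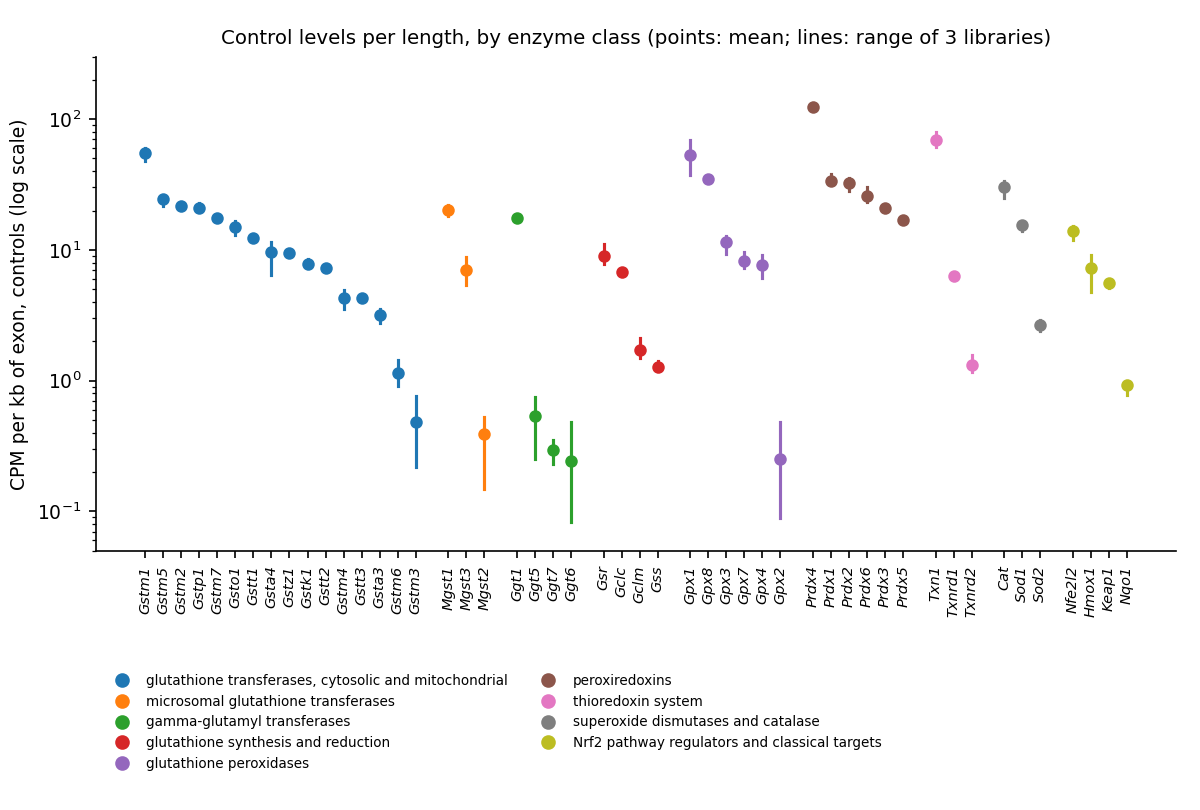
Control level in CPM per kb of annotated exon sequence on a log axis, grouped by enzyme class. Points are the mean and lines the range of the 3 control libraries of each gene. Length is that of all annotated exons. Prdx4 is the highest at 125 CPM per kb, and Gsta1, Gsta2 and Gstp2, all below 0.2 CPM per kb, are not drawn.

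The other genes of the pathway were taken from 6 lists with 125 genes in the files, of which 108 were tested. None was higher and 4 were lower at an edgeR adjusted p under 0.05, where 0.545% and 1.51% of all tested genes were. At an unadjusted p under 0.05 by edgeR 4 were higher and 11 lower, where 5.41% and 7.36% of all tested genes were. DESeq2 called 0 higher and 4 lower, against 0.559% and 1.58% of the genes it tested. Their median log2 fold change was -0.00606. Of 21 tested genes of further glutathione handling Anpep fell, the surface aminopeptidase that cleaves the cysteinylglycine left by gamma-glutamyl transferases. It was at 166, 140 and 180 CPM in the controls, against 99.0, 82.7 and 90.6 CPM in the mutants (log2 fold change -0.83 ± 0.12, edgeR adjusted p = 0.00602), without overlap. Of 24 further Nrf2 regulators and targets Trim16 and Aldh1a1 fell. Trim16, a ubiquitin ligase, was at 15.8, 15.1 and 18.6 CPM in the controls, against 5.52, 5.11 and 6.29 CPM in the mutants (-1.55 ± 0.15, edgeR adjusted p = 0.000524). Aldh1a1, a retinaldehyde dehydrogenase, was at 202, 165 and 116 CPM in the controls, against 74.6, 64.1 and 77.0 CPM in the mutants (-1.16 ± 0.18, edgeR adjusted p = 0.00848, and 0.0555 without control 2). Both had separate groups. Of 14 oxidant-producing enzymes Pipox, the peroxisomal pipecolate oxidase, fell from between 44.2 and 50.8 CPM to between 32.5 and 36.1 CPM (-0.47 ± 0.10, edgeR adjusted p = 0.0466), a call that was lost in 8 of 13 alternative analyses. No gene was called among 13 of NADPH supply (0 higher and 1 lower at an unadjusted p under 0.05 by edgeR), 18 further thioredoxin, glutaredoxin and methionine sulfoxide enzymes (1 and 1) and 18 genes of selenoprotein synthesis and further selenoproteins (2 and 1).

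Of the 6 antioxidant genes that fell, 3 lie within 1 stretch of chromosome 10 that holds Ggt1, Ggt5, Gstt3, Gstt1 and Gstt2. The stretch was chosen after the values were seen. In it and 250 kb on either side 12 other genes were tested, of which 1 was lower, none was higher and 9 had a log2 fold change below 0. Over all tested genes 1.51% were called lower, 0.545% higher, and 49.1% had a log2 fold change below 0. The gene that fell was Derl3 (chr10:75893413-75895941), a component of the removal of misfolded proteins from the endoplasmic reticulum. It was at 114, 124 and 112 CPM in the controls, against 53.7, 43.3 and 58.8 CPM in the mutants, separate by a wide margin (-1.16 ± 0.12, edgeR adjusted p = 0.000708). The median log2 fold change of the 12 was -0.271. Ddt and Cabin1, which both lie between Ggt5 and Gstt3, had log2 fold changes of -0.03 and -0.03. Susd2, which lies there too, was at -0.30 ± 0.25. Mif, between Gstt2 and Derl3, was at -0.55 ± 0.15 with separate groups, and neither was past the threshold. Upb1 had the highest value, 1.08 ± 0.30, with an edgeR adjusted p of 0.12. Around the mu transferases on chromosome 3, 10 other genes were tested and none was called.

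**Figure D5:**
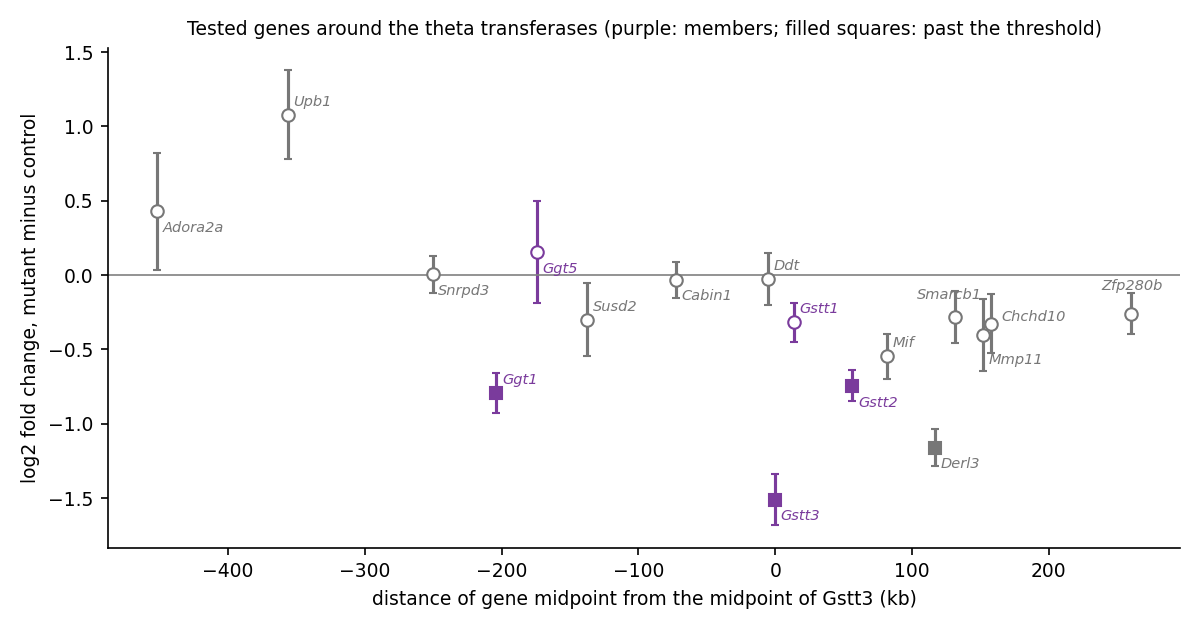
Log2 fold change with its standard error against the distance of each gene's midpoint from that of Gstt3 in kb, for the 5 antioxidant genes of the chromosome 10 stretch and 12 tested neighbours. Filled squares are past the threshold (Gstt3, Ggt1, Gstt2 and Derl3). Genes near 0 such as Ddt and Cabin1 lie among them, and so do genes below 0 such as Susd2 and Mif.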

How the data were processed

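RNA of 6 whole pancreata samples was sequenced after TruSeq mRNA library preparation, and the authors deposited whole-number counts per gene symbol, in 1 table per library that has no line for unassigned reads. The tools named, per the submitters' processing notes, were HTSeq 0.6.1p1, STAR, cutadapt 1.13 and DESeq2 with the build mm10, and these notes give no order. The annotation, the strand setting and the handling of multiply aligned reads were not given in the sources used here. Reads of genes that share sequence or overlap could therefore be lost or misassigned.

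Groups and replicate numbers came from the sample titles. Counts were tested with edgeR 4.0.16 in R 4.3.3 (TMM scaling, filterByExpr at its defaults, quasi-likelihood test, no covariate), which left 13017 genes. Benjamini-Hochberg adjustment ran over all of them, with 0.05 as the threshold. The SE of a log2 fold change is its size divided by the square root of F. Nothing states litters or days, so p-values measure only the spread between these samples. Within groups the libraries differed by a chi-square of 5.83 to 20.5 per degree of freedom, and all 6 were kept. On the TMM-scaled library sizes 3 counts, the limit that a count of 0 allows, were equal to 0.286 to 0.451 CPM. This limit covers counting error only.

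The genes, the lists and the classes were chosen with earlier results of these data known. All 52 genes could be named; those past the threshold and the most abundant of each class are given in every library, and of the other lists up to 3 genes past the threshold with the smallest adjusted p. Alternatives were DESeq2 1.42.0, other scalings and filters, robust fitting, a replicate block and leaving out each library. Positions and lengths came from GENCODE M21 (GRCm38, which mm10 denotes), in which all 52 symbols matched 1 gene, and promoters from RefSeq (GRCm38.p6), which held 45.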

Additional observations from a re-analysis of the deposited data

How the results depend on the processing

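Leaving out 1 library gave between 125 genes called of all tested (without control 2) and 301 (without mutant 2), where 268 were called with all 6. Among the antioxidant genes 3 to 5 were then called lower in place of 6, with 3 without control 2, control 3, mutant 1 or mutant 3, and their median log2 fold change lay between -0.167 and -0.0544. Of the other pathway genes 2 to 3 were called lower in place of 4. Scaling by library totals alone called 3 antioxidant genes lower (Gstt3, Gstt2 and Ggt1), gave a median of 0.0387, called 1 other pathway gene higher (Sepw1) and turned the split over all genes from 71 higher and 197 lower to 190 higher and 130 lower. Gstt3 and Gstt2 were called in 13 of 13 alternatives, Ggt1 in 10, Gstm2 in 9, Gstp1 in 8 and Gsto1 in 6, and Gsta4 entered in 5. No antioxidant gene was called higher in any of the 13. Samples with the same number had a Pearson r across genes of 0.0798, 0.0289 and -0.0708 for their deviations from group means. Pairs with different numbers lay between -0.109 and 0.111. Deviations from a mean of 3 balance around 0, so these values cannot exclude a shared litter or day. The replicate block called 241 genes, 7 antioxidant genes lower and 3 other pathway genes lower, with a median of -0.14. With 3 libraries per group the spread between libraries limits abundant genes, and counting limits those near 1 CPM, such as Nqo1 and Mgst2. The causes of these differences were not tested.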
